A study of Mus musculus with 12 samples.

Results

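RNA bound to ribosomes in adult mouse hearts was compared between wild-type animals (WT) and animals without Rpl3l (genotype Rpl3l-/-, here KO). The comparison takes the libraries made from ribosome pulldowns, 3 per genotype and 6 of the 12 libraries in the series, and tests every gene that passed one filter on low counts. Hearts of both genotypes were exposed to cycloheximide, which holds ribosomes on mRNA, as they were excised. Ribosomes were then taken out of the homogenate with an antibody against the HA tag and magnetic beads (immunoprecipitation, IP), and poly(A) RNA from them was read as nanopore direct cDNA on a MinION. The labels give the animals as adult and the replicates as biological triplicates. They do not state the sex, the age, the part of Rpl3l that was deleted, which protein carries the HA tag or which cells express it. The 6 libraries from total RNA were not used, except in one alternative fit of all 12.

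Rpl3 is a large-subunit protein (uL3) of cytosolic ribosomes that reaches towards the peptidyl transferase centre, where peptide bonds form. Rpl3l encodes a paralog expressed in heart and skeletal muscle, which takes the place of Rpl3 in part of the ribosomes of mature muscle. A pulldown of tagged ribosomes measures how much of each mRNA sits on ribosomes. That amount depends on how much of the mRNA the tagged cells hold and on how well it is loaded, and the pulldown alone does not separate these. In a piece of whole tissue, fewer cells of a type and less RNA per cell cannot be told apart either.

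The IP libraries held 549358 to 684762 gene counts in WT and 443525 to 710868 in KO, and 3 counts correspond to between 4.22 and 6.76 CPM, counts scaled to the size of the library. Between 11588 and 12576 genes had a count in a library. Of 14886 genes with a count in any of the 6, 6818 passed the filter and were tested with edgeR's quasi-likelihood test, among them 6709 protein-coding genes. Heart muscle genes were abundant in all 6 libraries: Myl2, the ventricular regulatory light chain, was at 11603 to 16151 CPM, and Atp2a2, the calcium pump of the sarcoplasmic reticulum, at 10388 to 12766 CPM. One defining heart gene, the cardiac actin Actc1, was listed at 0 in all 6. Globin genes took 17.2% of the counts in WT IP replicate 2 and 1.70% to 6.97% in the others. KO IP replicate 1, the smallest library, stood apart on the first principal component of log2 CPM, with 30.6% of the variance and a score of 35.9 against -11.1 to -0.88 for the others. The second component, with 21.4% of the variance, separated the genotypes, with scores of -23.5 to -1.29 in WT and 1.88 to 17.1 in KO. Levels given here are CPM after scaling by the trimmed mean of M values (TMM). On that scale 3 counts correspond to between 3.92 and 6.87 CPM. Log2 fold changes are KO against WT from edgeR, with their standard error (SE) and with p adjusted by Benjamini and Hochberg over the 6818 genes.

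Rpl3l was nearly gone from KO ribosome-bound RNA, and its paralog Rpl3 was the 1 gene that rose. Rpl3l (ENSMUSG00000002500.15, mouse build GRCm38, chromosome 17, 24727820 to 24736143, plus strand, overlapping no other annotated gene) stood at 270.3, 268 and 271 CPM in the 3 WT libraries. In the KO libraries it stood at 2.29, 2.61 and 8.32 CPM, from 1, 2 and 5 counts. The groups are far apart and the WT libraries nearly coincide. Pooled over libraries, KO kept 1.64% of the WT level (8 counts against 496, exact 95% interval 0.705% to 3.26%, counting error only). The log2 fold change was -5.86 (SE 0.31, edgeR adjusted p 4.65e-11), and without KO IP replicate 3, which holds 5 of the 8 counts, it was -6.65. Rpl3 (chromosome 15, 80077791 to 80091868, minus strand) stood at 80.2, 104 and 81.7 CPM in WT and at 245, 214 and 221 CPM in KO. Every KO library was more than 2 times as high as the highest WT library. The rise was 2.55-fold, a log2 fold change of 1.35 (SE 0.19, edgeR adjusted p 0.000799). Both calls held in all 17 alternative analyses. The largest adjusted p was 0.000111 for Rpl3l, with limma-voom, and 0.0411 for Rpl3, without WT IP replicate 1.

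The starts of both coding sequences are shown because the counts of the pair depend on reads being told apart. They were read from the GENCODE M21 transcripts and genome annotation of GRCm38, and capitals mark the bases at which they differ.
Rpl3l: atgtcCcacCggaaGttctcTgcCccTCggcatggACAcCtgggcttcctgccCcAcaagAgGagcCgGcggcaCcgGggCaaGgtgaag
Rpl3: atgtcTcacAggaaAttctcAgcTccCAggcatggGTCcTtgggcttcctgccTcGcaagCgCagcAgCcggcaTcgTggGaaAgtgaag
Of these first 90 coding bases, 21 differ. Over the whole coding sequences, of 1221 and 1209 bases, 899 of 1202 aligned bases were identical (74.8%), and 3 of the 1202 stretches of 20 bases in Rpl3l also occur in Rpl3. How the authors assigned reads that fit both genes is not stated in these sources. Rpl3 also overlaps Syngr1 on the opposite strand and 4 small RNA genes on its own strand, and whether strand was used in counting is not given either.

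**Figure D1:**
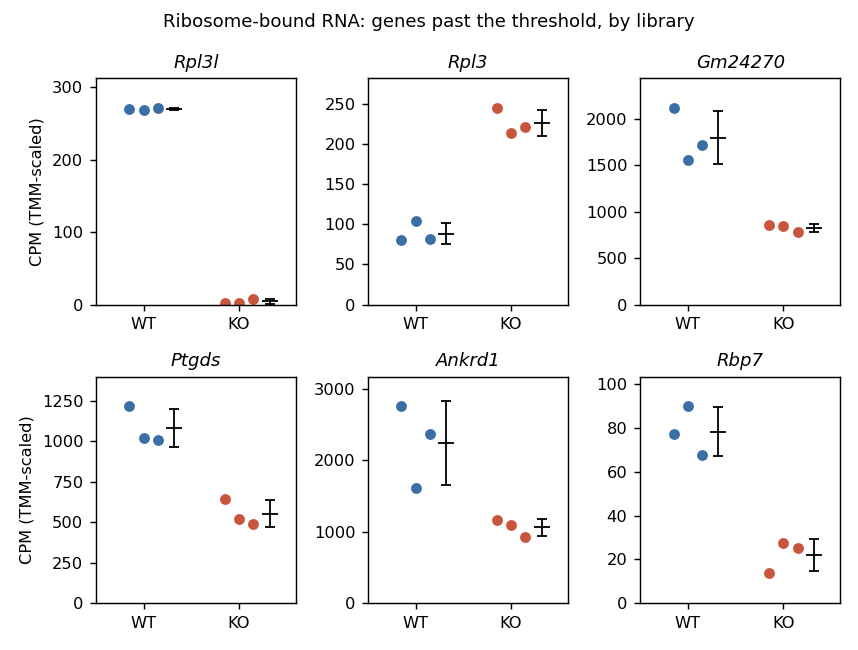
CPM after TMM scaling (vertical axis, from 0) of the 6 genes past the threshold, 1 panel per gene, in the 3 WT (blue) and 3 KO (red) IP libraries; the bar beside each group is its mean ± SD. Rpl3 is the gene with KO above WT, and in the other 5 panels every KO library lies below every WT library.

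Few other genes differed. At an adjusted p under 0.05, 1 of the 6818 genes was higher in KO (0.0147%) and 5 were lower (0.0733%). Besides Rpl3l, the genes that fell were Ankrd1, Ptgds, Rbp7 and Gm24270. At an unadjusted p under 0.05 there were 393 of the 6818 genes, 210 higher and 183 lower. That count is the background for the numbers of list members at an unadjusted p under 0.05 given below. TMM scaling centres the fold changes, so the median of 0.00 is set by the scaling and says nothing of a shift in all RNA; with library totals in its place the median was 0.11. The median SE of a gene was 0.31, and 123 genes had a log2 fold change beyond 1 in either direction. In 380 genes (5.57%) the lowest KO library exceeded the highest WT library, and in 369 (5.41%) the highest KO library was under the lowest WT library; such genes are called separated here. These shares are the background for the counts of separated genes given below.

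**Figure D2:**
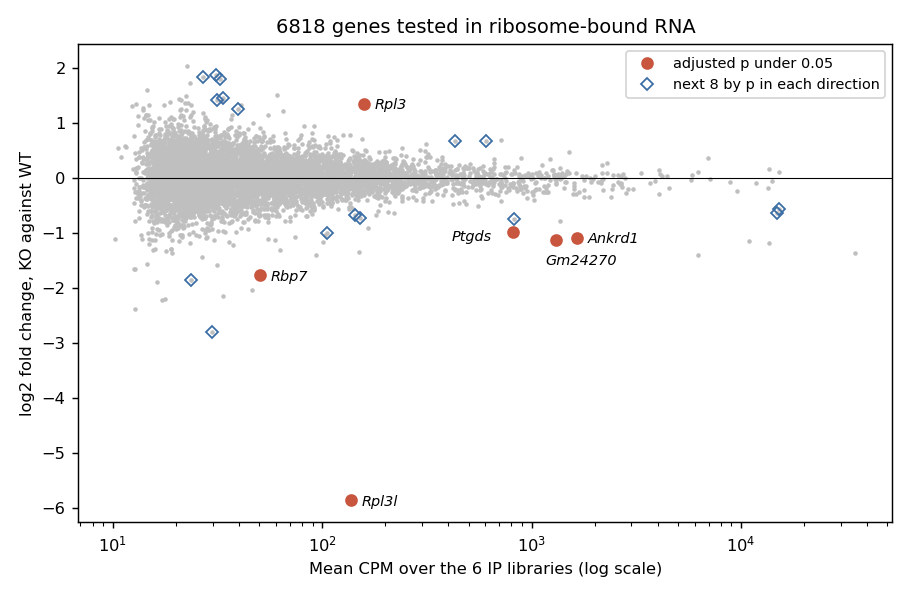
Log2 fold change, KO against WT (vertical axis), by mean CPM over the 6 IP libraries (horizontal, log scale) for the 6818 genes tested. Red points are the 6 genes with adjusted p under 0.05, and blue diamonds the 8 genes in each direction with the next smallest p among separated genes of at least 20 CPM; Rpl3l, at -5.86, is far below all others.

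Ankrd1, which encodes a stress-responsive ankyrin repeat protein of the cardiomyocyte nucleus and sarcomere, fell 2.12-fold. It lies on chromosome 19 (36111961 to 36120099, minus strand). Its level was 2757, 1605 and 2375 CPM in WT and 1159, 1091 and 926 CPM in KO. The groups do not overlap, and WT IP replicate 2 was the lowest of the WT libraries. The log2 fold change was -1.09 (SE 0.17, edgeR adjusted p 0.00374). It was no longer called when WT IP replicate 1 was dropped (log2 fold change -0.91, adjusted p 0.145), or KO IP replicate 3 (adjusted p 0.0994), or with library totals in place of TMM (adjusted p 0.108). It held in the other 14 of 17 alternatives.

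Of the list of cardiac stress and hypertrophy genes to which Ankrd1 belongs, 24 of 35 were tested, 16 of them with a log2 fold change below 0. The median was -0.20, beside 0.00 over all genes. Ankrd1 was the 1 member called, 7 members had an unadjusted p under 0.05, all of them lower in KO, and 4 (16.7%) had every KO library below every WT library, where 5.41% of all genes did. The summed level of the list was 12479, 9578 and 11974 CPM in WT and 8655, 8850 and 8381 CPM in KO, with Ankrd1 the single largest part of the gap. Xirp2, an actin-binding protein of the intercalated disc, was at 192, 217 and 162 CPM in WT and at 73.3, 154 and 110 CPM in KO (log2 fold change -0.72, SE 0.22, adjusted p 0.563). Acta1, the skeletal actin that the fetal and the loaded heart express, was at 2100, 1058 and 2032 CPM in WT and at 758, 1088 and 1178 CPM in KO (log2 fold change -0.78, SE 0.21, adjusted p 0.299). The groups of Acta1 overlap through WT IP replicate 2, and edgeR called it lower when that library was left out. The natriuretic peptide genes, which ventricles induce under load, did not pass the test and their groups overlap. Nppa was at 215, 114 and 337 CPM in WT and at 147, 184 and 83.2 CPM in KO (log2 fold change -0.68, SE 0.29). It is also on the list of atrial markers. The summed level of that list, Nppa included, was 560, 674 and 1307 CPM in WT and 1202, 928 and 512 CPM in KO. The part of atrial tissue in the level of Nppa was not tested. Nppb was at 382, 207 and 155 CPM in WT and at 227, 172 and 96.5 CPM in KO (log2 fold change -0.61, SE 0.28). Myh7, the slow myosin heavy chain that returns in the failing mouse heart, was at 211, 112 and 210.4 CPM in WT and at 91.6, 219 and 268 CPM in KO, giving a log2 fold change of 0.14 (SE 0.27).

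Ptgds fell to about the same degree. It encodes lipocalin-type prostaglandin D synthase, which makes prostaglandin D2 and is secreted, and lies on chromosome 2 (25466709 to 25470046, minus strand). Its level was 1218, 1023 and 1007 CPM in WT and 646, 521 and 489 CPM in KO, and the lowest WT library was well above the highest KO library. The log2 fold change was -0.98 (SE 0.15, edgeR adjusted p 0.00228). The call was lost when WT IP replicate 1 was dropped (-0.89, adjusted p 0.092) or KO IP replicate 3 (-0.90, adjusted p 0.0917), with library totals (-0.88, adjusted p 0.0677) and in the fit of all 12 libraries (-0.97, adjusted p 0.0935).

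Rbp7, a retinol-binding protein of capillary endothelium, fell 3.40-fold. It lies on chromosome 4 (149449687 to 149454978, minus strand) and was at 77.2, 90.02 and 67.8 CPM in WT and at 13.7, 27.4 and 24.9 CPM in KO. The highest KO library was below the lowest WT library by a factor of more than 2. The log2 fold change was -1.77 (SE 0.30, edgeR adjusted p 0.00829). Its adjusted p was 0.0913 when WT IP replicate 1 was dropped, 0.159 when WT IP replicate 2 was, 0.079 when KO IP replicate 3 was, and 0.0677 with library totals, while the log2 fold change ran from -1.97 to -1.58 over the 17 alternatives.

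No other endothelial marker passed the test. Of 19 tested endothelial markers, Rbp7 was the 1 called and 1 other had an unadjusted p under 0.05. The median of the list was -0.01 (0.16 without KO IP replicate 3), 9 members were above 0 and 10 below, and the summed level was 2926 to 3411 CPM in WT and 2883 to 3109 CPM in KO. Pecam1, a junction protein of all endothelium, was at 78.7, 105 and 111 CPM in WT and at 137, 107 and 110 CPM in KO (log2 fold change 0.25, SE 0.21). Fabp4, a fatty acid carrier of capillaries and fat cells, was at 1224, 1592 and 1022 CPM in WT and at 1049, 1012 and 1173 CPM in KO (log2 fold change -0.25, SE 0.16). Gpihbp1, which carries lipoprotein lipase across the capillary wall, was at 93.6, 76.4 and 83.5 CPM in WT and at 77.8, 56.1 and 83.2 CPM in KO (log2 fold change -0.24, SE 0.24). The caveolin gene Cav1 was listed at 0 in all 6 libraries. Whether Rbp7 differs from these genes was not tested.

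The lowest p after that of Rpl3l belonged to Gm24270, 1 of a group of 57-base loci that the annotation classes as miRNA genes. The sequences are shown because a read within these bases cannot be assigned to one identical member over another. They are the annotated loci of GENCODE M21 on GRCm38, and a capital marks the base at which Gm24187 differs from Gm24270.
Gm24270: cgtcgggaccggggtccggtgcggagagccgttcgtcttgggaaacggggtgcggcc
Gm23935: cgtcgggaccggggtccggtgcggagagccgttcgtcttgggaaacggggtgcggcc
Gm24187: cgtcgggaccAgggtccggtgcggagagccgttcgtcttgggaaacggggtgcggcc
Gm24270 is at chromosome 9, 56223715 to 56223771 (minus strand, within Peak1 on the same strand), Gm23935 at chromosome 16, 11144125 to 11144181 (plus strand, within Zc3h7a on the opposite strand), and Gm24187 at chromosome 13, 9834469 to 9834525 (minus strand). Gm24245 on chromosome 4, which has the same bases as Gm24270, had counts in KO IP replicate 3 alone, at 8.32 CPM.

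Gm24270 was at 2115, 1558 and 1713 CPM in WT and at 856, 847 and 777 CPM in KO, giving a log2 fold change of -1.12 (SE 0.15, edgeR adjusted p 0.000559). It was called in all 16 alternatives that kept it, with adjusted p of at most 0.0377. Gm23935, with the same 57 bases, was at 18333, 18722 and 16964 CPM in WT and at 11698, 13744 and 11271 CPM in KO, for a log2 fold change of -0.56 with an SE of 0.16 (adjusted p 0.437). Gm24187 was at 1221, 1051 and 817 CPM in WT and at 595, 798 and 444 CPM in KO, for a log2 fold change of -0.75 with an SE of 0.18 (adjusted p 0.196). Lars2, the mitochondrial leucyl-tRNA synthetase gene, was as abundant as Gm23935, at 19579, 17689 and 16882 CPM in WT and 12248, 13506 and 9165 CPM in KO (log2 fold change -0.63, SE 0.17, adjusted p 0.329). In each of the 4 genes every KO library was below every WT library. DESeq2 and limma-voom also called Gm23935 and Lars2. Leaving these loci and Lars2 out before scaling changed no other call of edgeR. The values of a single locus are uncertain, since identical copies can share reads, and the type of RNA behind these reads was not tested.

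**Figure D3:**
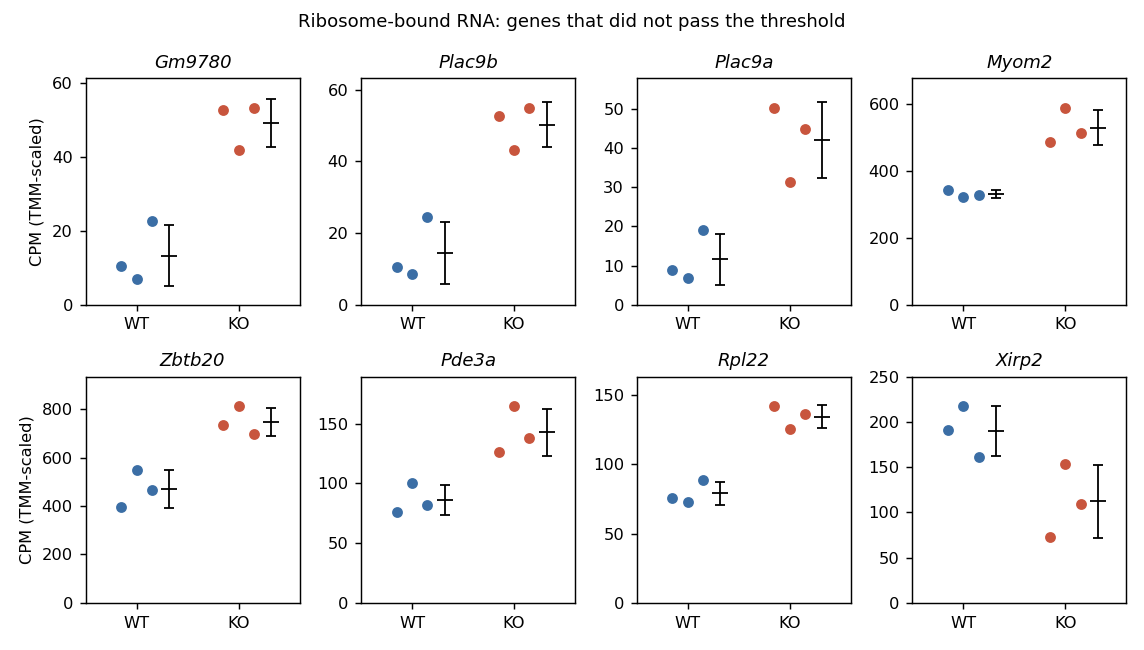
CPM after TMM scaling (vertical axis, from 0) in the 3 WT (blue) and 3 KO (red) IP libraries of 8 genes that did not pass the threshold, with mean ± SD beside each group. In each panel the genotypes do not overlap; Plac9a, Plac9b and Gm9780 share their coding sequence and their pattern.

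The genes with the next smallest p did not pass the threshold and are given as values. Plac9b, Plac9a and Gm9780, copies of a gene for a small secreted protein, lie on the minus strand of chromosome 14 (26167405 to 26182480, 25887506 to 25903100 and 26027282 to 26042711). Their coding sequences of 324 bases are identical, and the first 90 bases are shown because reads of these bases do not tell the copies apart, so their values are not independent.
Plac9b: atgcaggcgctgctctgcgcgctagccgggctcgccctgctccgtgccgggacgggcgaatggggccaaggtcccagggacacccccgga
Plac9b was at 10.4, 8.49 and 24.3 CPM in WT and at 52.7, 43.1 and 54.9 CPM in KO, giving a log2 fold change of 1.79 (SE 0.39, edgeR adjusted p 0.0938). Gm9780 was at 10.4, 6.79 and 22.6 CPM in WT and at 52.7, 41.8 and 53.2 CPM in KO (log2 fold change 1.88), and Plac9a at 8.91, 6.79 and 19.1 CPM in WT and at 50.4, 31.3 and 44.9 CPM in KO (log2 fold change 1.83). WT IP replicate 3 was the highest WT library for all 3 copies. Plac9b passed the threshold without that library (log2 fold change 2.37, adjusted p 0.0183) and in the fit of all 12 libraries (1.79, adjusted p 0.0334).

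Myom2, a protein of the sarcomere's M-band in adult and fast muscle, was at 343, 321 and 329 CPM in WT and at 485, 588 and 512 CPM in KO (log2 fold change 0.68, SE 0.15, edgeR adjusted p 0.0938). Zbtb20, a zinc-finger transcription repressor, was at 395, 550.3 and 466 CPM in WT and at 733, 812 and 697 CPM in KO (log2 fold change 0.67, SE 0.15, adjusted p 0.119). DESeq2 called both, with adjusted p of 0.0371 and 0.0495. Dglucy, a mitochondrial D-glutamate cyclase gene, was at 23.8, 23.8 and 22.6 CPM in WT and at 59.5, 66.6 and 41.6 CPM in KO (log2 fold change 1.25, adjusted p 0.217). Cenpf, a kinetochore protein gene, was at 14.9, 27.2 and 12.2 CPM in WT and at 43.5, 49.6 and 54.9 CPM in KO (log2 fold change 1.45, SE 0.35, adjusted p 0.196). Among separated genes that were lower, Limd2, a LIM domain gene, was at 37.1, 47.6 and 26.1 CPM in WT and at 13.7, 7.83 and 9.98 CPM in KO (log2 fold change -1.85, SE 0.42, adjusted p 0.129). Ifi27l2a, an interferon-induced gene, was at 126, 172 and 122 CPM in WT and at 96.2, 57.4 and 61.5 CPM in KO (log2 fold change -0.997, SE 0.23, adjusted p 0.156). Gm12537 was at 60.9, 51.0 and 38.3 CPM in WT, at 27.5 CPM in KO IP replicate 1 and at 0 in both other KO libraries. It passed the threshold when KO IP replicate 1 was left out.

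Apart from Rpl3 and Rpl3l, ribosomal protein genes did not pass the test. No member of the small or large subunit was called by edgeR, DESeq2 or limma-voom. Of 32 tested small-subunit genes, none had an unadjusted p under 0.05 and none was separated between the genotypes; 24 were above 0 and the median log2 fold change was 0.10. Their summed level was 8508, 8065 and 10813 CPM in WT and 10180, 9759 and 9231 CPM in KO, and the groups overlap. Without WT IP replicate 2 the median was -0.02, so its side of 0 turned on 1 library. Without WT IP replicate 3 it was 0.23. Of 47 tested large-subunit genes, 4 had an unadjusted p under 0.05, 30 were above 0, and the median was 0.02, which became -0.03 when WT IP replicate 2 was left out and 0.16 when WT IP replicate 3 was. All 3 KO libraries were above WT for 3 of them (6.38%) and below for 2 (4.26%). Rpl22, a large-subunit protein, had the smallest p. It was at 75.8, 73.0 and 88.7 CPM in WT and at 142, 125 and 136 CPM in KO, for a log2 fold change of 0.76 with an SE of 0.20 (adjusted p 0.299). Its paralog Rpl22l1 was at 71.3, 56.1 and 97.4 CPM in WT and at 32.1, 60.1 and 43.2 CPM in KO (log2 fold change -0.69, SE 0.29, adjusted p 0.817), and its groups overlap in 1 KO library. Rpl17, another large-subunit protein, was at 201, 182 and 268 CPM in WT and at 279, 287 and 286 CPM in KO (log2 fold change 0.39, SE 0.17). Rpl24 and Rpl35a were listed at 0 in all 6 libraries.

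Factors that carry out or prepare translation did not pass the test either. Among 44 tested initiation, elongation and release factors, 1 had an unadjusted p under 0.05 and none was called by edgeR, DESeq2 or limma-voom. The median was 0.02, and 3 members (6.82%) were separated below WT. Eif3h, a subunit of the initiation factor that brings the small subunit to mRNA, was at 149, 127 and 151 CPM in WT and at 59.5, 114 and 110 CPM in KO (log2 fold change -0.56, SE 0.22, adjusted p 0.814). Of 33 tested ribosome biogenesis genes, 1 had an unadjusted p under 0.05, none was called by edgeR, DESeq2 or limma-voom, and 3 (9.09%) were separated below WT. Nob1, the endonuclease that finishes the small-subunit rRNA, was at 32.7, 22.1 and 27.8 CPM in WT and at 20.6, 14.4 and 11.6 CPM in KO (log2 fold change -0.86, SE 0.41). Targets of the integrated stress response had 7 members above 0 and 7 below and a median of 0.00. No member had an unadjusted p under 0.05 or was called by DESeq2 or limma-voom. The member of that list with the smallest p, Ddit4, an inhibitor of growth signalling, was at 25.2, 22.1 and 40.0 CPM in WT and at 59.5, 70.5 and 18.3 CPM in KO. The 9 tested p53 targets had a median of 0.27, with 5 above 0, which became -0.02 under the stricter count filter. None was called by any of the 3 tools and 1 had an unadjusted p under 0.05: Ccng1, a cyclin gene, at 527, 581 and 459 CPM in WT and 337, 475 and 329 CPM in KO.

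**Figure D4:**
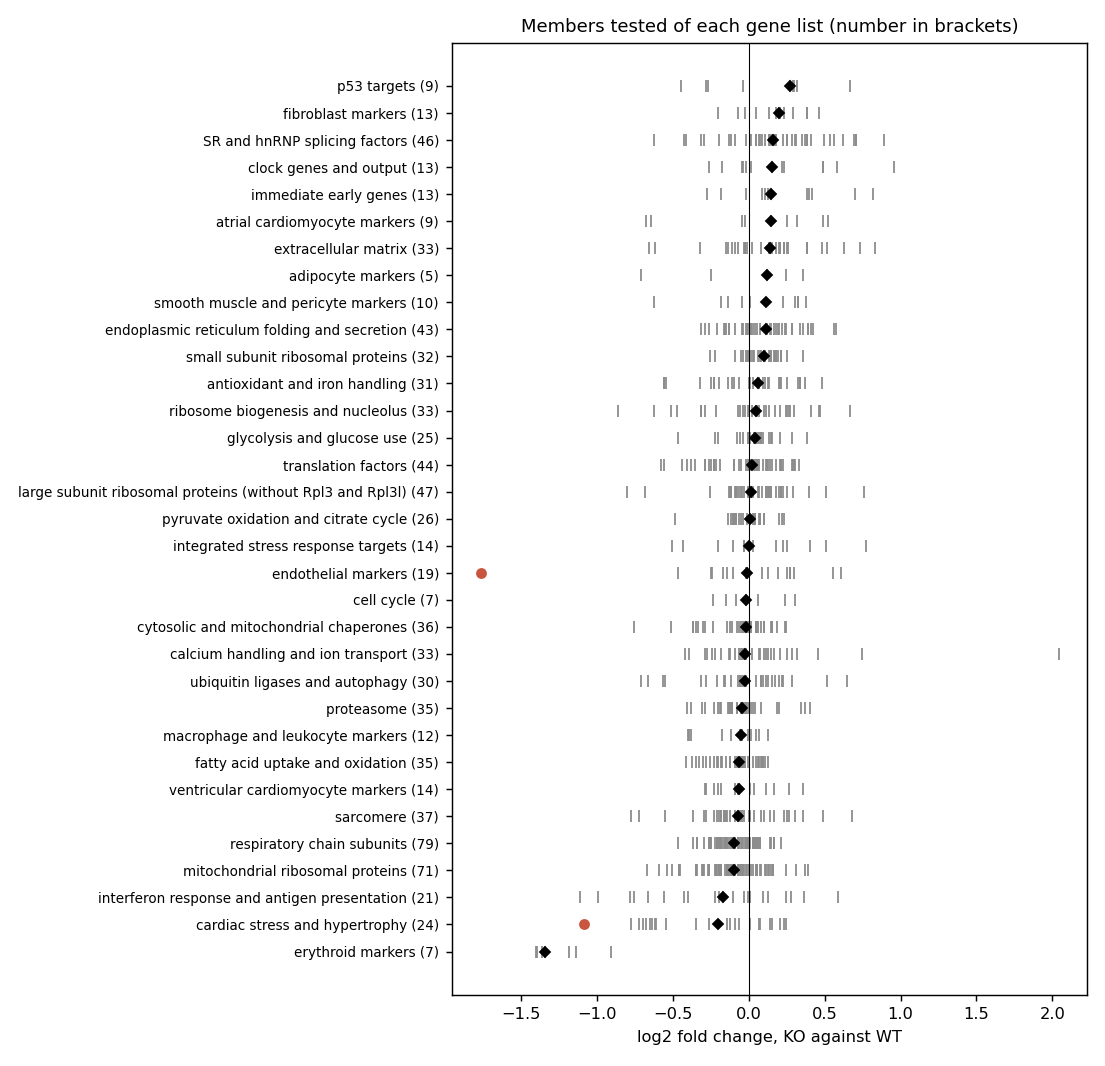
Log2 fold change, KO against WT (horizontal axis), of every tested member of each gene list (grey ticks) with the list's median (black diamond) and members with adjusted p under 0.05 in red; the number tested is in brackets. Ankrd1 and Rbp7 are the 2 red points, lists with fewer than 5 tested members are left out, and medians other than that of the erythroid genes lie between -0.20 and 0.27.

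Respiratory chain and mitochondrial ribosome genes had medians slightly below 0, with no member past the test. Of 79 tested respiratory chain subunits, 59 had a log2 fold change below 0 and the median was -0.10. All 3 KO libraries were below WT for 11 of them (13.9%, beside 5.41% of all genes) and above for none. None was called by edgeR, DESeq2 or limma-voom, and 4 had an unadjusted p under 0.05. Ndufc1, an accessory subunit of complex I, was at 1114, 1031 and 1052 CPM in WT and at 712, 806 and 958 CPM in KO (log2 fold change -0.37, SE 0.14, adjusted p 0.814). Cox7a1, the heart and muscle form of a complex IV subunit, was at 2660, 2747 and 2622 CPM in WT and at 2287, 1924 and 2129 CPM in KO (log2 fold change -0.34, SE 0.14). The summed level of the list was 122232, 130117 and 117533 CPM in WT and 126684, 102302 and 120576 CPM in KO, so the groups overlap. Mitochondrial ribosomal protein genes showed similar counts: 51 of 71 were below 0, the median was -0.10, and 9 (12.7%) were separated below WT, with 4 at an unadjusted p under 0.05 and none called by the 3 tools. Mrpl20, which had the smallest p there, was at 184, 204 and 141 CPM in WT and at 126, 96.6 and 113 CPM in KO (log2 fold change -0.67, SE 0.20, adjusted p 0.507). Both lists hold short transcripts, with median lengths of 865 and 1316 bases, and KO IP replicate 2 had the lowest summed level in each. Without KO IP replicate 2 the medians were -0.02 for the respiratory chain and -0.03 for the mitochondrial ribosome. Without KO IP replicate 1 they were -0.16 and -0.19, so the size of both medians depended on which KO library was left out. Under library totals they were 0.02 and 0.01, beside 0.11 over all genes, so both stayed below the median of all genes. Fatty acid oxidation genes had 25 of 35 members below 0 and a median of -0.06 (0.04 under library totals, beside the same 0.11). Of them 2 (5.71%) were separated below WT, and none had an unadjusted p under 0.05 or was called by any of the 3 tools. Eci1, an isomerase of that pathway, was at 432, 489 and 454 CPM in WT and at 330, 338 and 446 CPM in KO. Of the tested glycolysis genes, 17 of 25 were above 0, with a median of 0.04, and of the pyruvate and citrate cycle genes 13 of 26, with a median of 0.01; in each list 1 member had an unadjusted p under 0.05 and none was called by the 3 tools. Pdhx, a structural part of pyruvate dehydrogenase, was at 236, 224 and 203 CPM in WT and at 158 CPM in each KO library (log2 fold change -0.49, SE 0.17, adjusted p 0.767).

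Sarcomere genes lay on both sides of 0 and none passed edgeR's test, with 5 of 37 at an unadjusted p under 0.05 and Myom2 called by DESeq2. Their median was -0.07 (0.04 under library totals, beside 0.11 over all genes), 5 (13.5%) were separated below WT and 1, Myom2, above. Myom1, the M-band partner gene of Myom2, was at 622, 634 and 706 CPM in WT and at 488, 565 and 467 CPM in KO, for a log2 fold change of -0.36 with an SE of 0.14 (adjusted p 0.814), opposite in sign to that of Myom2. Myh6, the main myosin of the adult mouse heart, was at 5646, 6263 and 6409 CPM in WT and at 6407, 7229 and 9804 CPM in KO (log2 fold change 0.36, SE 0.17, adjusted p 0.861). Ttn, the giant spring protein titin, was at 2025, 1897 and 2309 CPM in WT and at 2063, 3291 and 2137 CPM in KO (0.27, SE 0.17), and Myl2 had a log2 fold change of -0.18 (SE 0.16). Of 33 tested genes of calcium handling and ion transport, 2 had an unadjusted p under 0.05, none was called by edgeR, DESeq2 or limma-voom, and 3 (9.09%) were separated above WT. Pde3a, a phosphodiesterase that breaks down cyclic AMP in cardiomyocytes, was at 75.8, 100.2 and 81.7 CPM in WT and at 126, 165 and 138 CPM in KO (log2 fold change 0.75, SE 0.21, adjusted p 0.336). Another phosphodiesterase gene, Pde4d, had the highest log2 fold change of the tested genes, 2.04 (SE 0.60), from 7.43, 3.40 and 15.6 CPM in WT and 20.6, 14.4 and 74.8 CPM in KO, and its groups overlap. Atp2a2 had a log2 fold change of -0.09 (SE 0.16).

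Splicing regulators lay to the higher side. Of 46 tested genes of the SR and hnRNP families and their partners, 36 were above 0 and the median log2 fold change was 0.16. All 3 KO libraries were above WT for 10 of them (21.7%, beside 5.57% of all genes) and below for 1, Srsf10. None was called by edgeR, DESeq2 or limma-voom, and 9 had an unadjusted p under 0.05, 8 of them higher. Rbm20, the muscle splicing factor that acts on titin pre-mRNA, was at 74.3, 105 and 176 CPM in WT and at 188, 184 and 205 CPM in KO (log2 fold change 0.71, SE 0.23, adjusted p 0.692). Luc7l2, a protein linked to the U1 particle, was at 57.9, 78.1 and 67.8 CPM in WT and at 84.7, 108 and 136 CPM in KO (log2 fold change 0.71, SE 0.23). Hnrnph1, an hnRNP that binds runs of G, was at 59.4, 54.4 and 76.5 CPM in WT and at 93.9, 114 and 83.2 CPM in KO (log2 fold change 0.62, SE 0.24). The summed level was 5169, 5349 and 5054 CPM in WT and 5452, 5879 and 5943 CPM in KO, with no overlap. The median ran from 0.12 to 0.27 over the 17 alternatives, with the 0.27 under library totals, beside 0.11 over all genes. Relative to the median of all genes it ran from 0.14 to 0.20. The median transcript of the list is 3465 bases long, and that of all genes tested 3122. The part of length in the values of this list was not tested.

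Genes of endoplasmic reticulum folding and secretion showed a smaller difference of the same sign. Of 43 tested, 28 were above 0, the median was 0.11, 6 (14.0%) were separated above WT and none below. None was called by edgeR, DESeq2 or limma-voom, and 1 had an unadjusted p under 0.05. P4hb, a protein disulfide isomerase, was at 149, 180.0 and 188 CPM in WT and at 247, 204 and 226 CPM in KO (log2 fold change 0.39, SE 0.17, adjusted p 0.832). Hspa5, the main chaperone of the compartment, was at 406, 397 and 438 CPM in WT and at 476, 480.5 and 504 CPM in KO (log2 fold change 0.24, SE 0.14). The summed level of the list was 4037, 4056 and 4070 CPM in WT and 4424, 4325 and 4401 CPM in KO. The median fell to 0.04 without WT IP replicate 3 and to 0.05 without KO IP replicate 1. Cytosolic and mitochondrial chaperones had a median of -0.02, with 5 of 36 (13.9%) separated below WT, 4 at an unadjusted p under 0.05 and none called by the 3 tools. Dnajb5, a DnaJ co-chaperone, was at 66.8, 42.5 and 71.3 CPM in WT and at 38.9, 36.6 and 31.6 CPM in KO (log2 fold change -0.76, SE 0.29).

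Fibroblast markers were higher in sum in KO. The summed level of the 15 fibroblast markers was 3281, 3003 and 3489 CPM in WT and 4266, 3746 and 4063 CPM in KO, with no overlap. Of 13 tested, 10 were above 0, the median was 0.20, 1 had an unadjusted p under 0.05 and none was called by edgeR, DESeq2 or limma-voom. Gsn, gelsolin, made up most of the gap, at 1270.02, 1206 and 1330.07 CPM in WT and 2125, 1452 and 1687 CPM in KO (log2 fold change 0.47, SE 0.15, adjusted p 0.682), and was the 1 member separated between the genotypes. Dcn, the matrix proteoglycan decorin, was at 1010.1, 955 and 1135 CPM in WT and at 1122, 1231 and 1281 CPM in KO (log2 fold change 0.23, SE 0.14). Tcf21, a defining fibroblast transcription factor, was listed at 0. Extracellular matrix genes, several of which are also fibroblast markers, had 21 of 33 members above 0 and a median of 0.14, with 4 at an unadjusted p under 0.05 and none called by the 3 tools. Lamc1, a laminin chain of basement membranes, was at 116, 148 and 130.4 CPM in WT and at 227, 170 and 170 CPM in KO (log2 fold change 0.51, SE 0.19, adjusted p 0.811). Postn, the periostin gene of activated fibroblasts, was at 29.7, 22.1 and 31.3 CPM in WT and at 25.2, 15.7 and 14.97 CPM in KO (log2 fold change -0.62, SE 0.39). The summed level of the ventricular cardiomyocyte markers was 82130.3 to 88889.5 CPM in WT and 78979.6 to 86279.6 CPM in KO, and the groups overlap. Of 14 tested, 6 were above 0 and 8 below, the median was -0.07, 3 (21.4%) were separated below WT (Pln, Myl3 and Actn2), and 1, Myh6, had an unadjusted p under 0.05, on the higher side. None of the 3 tools called a member. The part that the share of fibroblasts has in these values, and in those of Ptgds, was not tested.

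Immediate early genes that passed the filter lay to the higher side. Of 13 tested of 30, 10 were above 0, the median was 0.15, and 3 (23.1%) were separated above WT. None was called by edgeR, DESeq2 or limma-voom, and 2 had an unadjusted p under 0.05. Klf2, a transcription factor of endothelium under flow, was at 38.6, 52.7 and 53.9 CPM in WT and at 80.1, 95.3 and 78.2 CPM in KO (log2 fold change 0.82, SE 0.25, adjusted p 0.563). Jund, an AP-1 subunit, was at 38.6, 51.0 and 62.6 CPM in WT and at 103, 62.7 and 84.8 CPM in KO (log2 fold change 0.70, SE 0.27). The list's most inducible members, among them Fos, Egr1 and Nr4a1, were too low in the IP libraries to be tested. The summed level was 569, 659 and 610 CPM in WT and 712, 769 and 727 CPM in KO. The median fell to 0.04 without WT IP replicate 3.

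The remaining lists gave no called member by edgeR, DESeq2 or limma-voom. At an unadjusted p under 0.05 there were 393 of all 6818 genes. Among those tested in these lists there were 4 of 21 interferon and antigen presentation genes, 2 of 13 clock genes and 2 of 35 proteasome genes. There were also 4 of 30 ubiquitin and autophagy genes, 1 of 31 antioxidant or iron genes and 6 of 7 erythroid genes. The atrial, adipocyte and mesothelial lists had 1 gene each, of 9, 5 and 1 tested. Interferon and antigen presentation genes had a median of -0.17 that changed sign without WT IP replicate 2, to 0.13. Clock genes and their outputs had a median of 0.15 (-0.02 without KO IP replicate 1), led by Nr1d1, a repressor of the core clock, at 74.3, 91.7 and 113 CPM in WT and 211, 94.0 and 121 CPM in KO, with overlapping groups. Proteasome genes had 26 of 35 members below 0 and a median of -0.05 (0.07 under library totals, beside 0.11 over all genes). Psmc6, an ATPase of the regulatory particle, was at 199, 190.2 and 169 CPM in WT and at 153, 124 and 146 CPM in KO. The mitophagy receptor Bnip3l led the ubiquitin and autophagy genes at 143, 233 and 125 CPM in WT and 110, 97.9 and 131 CPM in KO. The transferrin receptor Tfrc led the antioxidant and iron genes at 84.7, 153 and 81.7 CPM in WT and 59.5, 65.3 and 89.8 CPM in KO. The groups of both genes overlap, and WT IP replicate 2 was the highest library for each. Erythroid genes had all 7 tested members below 0 and a median of -1.34, and their summed level was 58782, 201652 and 22639 CPM in WT and 71180, 28455 and 16236 CPM in KO. Without WT IP replicate 2 that median was -0.13. Bpgm, an enzyme of red cells, was at 135, 438 and 62.6 CPM in WT and at 142, 65.3 and 53.2 CPM in KO. Smooth muscle and pericyte genes had summed levels of 2291 to 2650 CPM in WT and 2357 to 2709 CPM in KO, macrophage and leukocyte genes of 924 to 1220 and of 893 to 1186, and the groups overlap in each. None of these last 2 lists had a member with an unadjusted p under 0.05. Atrial markers had 9 tested members with a median of 0.15 that changed side in 3 alternatives, Nppa being the 1 with an unadjusted p under 0.05, and their summed level was 512 to 1202 CPM in KO and 560 to 1307 CPM in WT. The 7 tested cell cycle genes had a median of -0.02 and the 5 tested adipocyte genes one of 0.12. Cidea, a lipid droplet gene and the adipocyte member with the smallest p, had a log2 fold change of -0.71 (SE 0.29). Of the mesothelial list 1 gene was tested, C3 (log2 fold change -0.57, SE 0.26), and of the Schwann cell list 2, among them the prion protein gene Prnp (-0.20, SE 0.19).

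Transcript length went with the fold change across genes, but not in every set of libraries. Over 6709 protein-coding genes, Spearman's rho between the length of the longest annotated transcript and the log2 fold change was 0.16, as a description across genes that share the same 6 libraries. The median log2 fold change was -0.05 among the genes with the shortest transcripts, up to 1938 bases, -0.01 in the next of 4 equal groups, 0.00 in the third and 0.09 in the longest, from 4855 bases. The share of genes above 0 in those 4 groups was 42.8%, 48.2%, 50.6% and 61.8%. Leaving out KO IP replicate 2 gave a rho of -0.01, and leaving out KO IP replicate 1 gave 0.26. Leaving out any other library gave 0.11 to 0.18, so the size of the relation depended on which KO libraries were included. The share of proline codons, a residue at which peptide bonds form slowly, had a rho of 0.06 with the log2 fold change (0.04 to 0.07 without 1 library), with medians from -0.01 in the lowest of 4 equal groups to 0.03 in the highest. The share of alanine codons had a rho of -0.01, and GC content 0.05, which ran from -0.07 to 0.16 when 1 library was left out. The respiratory chain and mitochondrial ribosome lists have short transcripts, with median lengths of 865 and 1316 bases, and negative medians. The small-subunit and large-subunit ribosomal protein lists are also short, at 882.5 and 946 bases, and had medians of 0.10 and 0.02. The part of length in these medians was not tested.

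**Figure D5:**
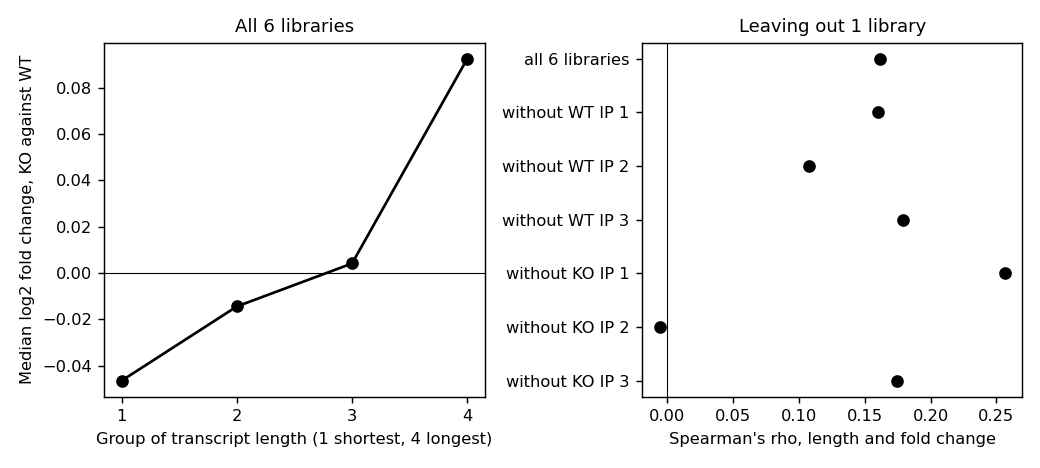
Left, median log2 fold change, KO against WT (vertical axis), in 4 equal groups of genes by transcript length, from the shortest to the longest. Right, Spearman's rho between transcript length and log2 fold change (horizontal axis) with all 6 IP libraries and with each left out; rho is near 0 without KO IP replicate 2.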

How the data were processed

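The authors deposited 1 whole-number count per gene and library, with 55401 gene IDs listed. The submitters' processing notes name minimap2 2.14, DESeq2 1.34.0 and the build GRCm38. The counting tool, its rule for shared reads and its use of strand are not given in the sources used here. Of the IDs, 55141 matched GENCODE M21 without their version, which gave names, lengths and coordinates. Sequences were read from its genome and transcripts.

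The 6 IP libraries were fitted with edgeR 4.0.16 in R 4.3.3 (quasi-likelihood, 1 term for genotype) after filterByExpr (minimum count 10, minimum total 15) and TMM scaling. The threshold was an adjusted p of 0.05, and the biological coefficient of variation was 17.8%. The SE is the size of the log2 fold change divided by the square root of F. A rank test of 3 against 3 cannot go below an exact p of 0.10. The alternatives, with DESeq2 1.42.0 and limma 3.58.1, are in the closing section. The test was tried on simulated counts first.

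The comparison and the 35 gene lists were chosen with earlier results of these data known, so lists were described and not tested. Named genes were Rpl3l, Rpl3, all genes called, the next 8 in each direction by p that were separated and had at least 20 CPM, the called or smallest-p member of each list, and 8 heart genes. Other names were chosen after their values were seen. Some results that this rule covers are not reported here. Replicates differed by more than counting noise in every pair of libraries.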

Additional observations from a re-analysis of the deposited data

How the results depend on the processing

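The fits gave 1 gene higher and 5 lower in KO also with DESeq2 size factors, a stricter count filter, globin genes left out and libraries thinned to the smallest total. With library totals in place of TMM, 2 genes were lower. With no count filter, 14886 genes were tested, and 34 were higher and 40 lower. DESeq2's test gave 3 higher and 7 lower, and limma-voom 1 and 7. The fit of all 12 libraries gave 2 higher and 4 lower. The cause of these differences was not tested. Without 1 library at a time, between 1 and 5 genes were higher and between 2 and 9 lower. The fewest lower calls came without WT IP replicate 1, with 2, and without KO IP replicate 3, with 3. The most calls came without KO IP replicate 1 and without KO IP replicate 2, with 5 higher and 9 lower each, while leaving out WT IP replicate 3 gave 4 higher and 6 lower. Leaving out the 57-base loci and Lars2, an alternative chosen after seeing the data, gave 1 higher and 4 lower. The fit with the replicate number as a block gave 1 higher and 5 lower. Libraries with the same number had deviations that correlated between -0.113 and 0.0134, and 1 of the 6 libraries correlated best with its own number. No pairing by number showed in these values, and with 3 libraries per genotype they cannot exclude one. Of 33 gene lists with at least 5 tested members, 13 had a median on the same side of the median of all genes in all 17 alternatives and 20 changed side in at least 1. A count of 3 stands for up to 6.87 CPM after TMM scaling, and the median SE of a gene was 0.31.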
